A study of Mus musculus with 4 samples.

Results

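The Myc genes, cyclins and cell cycle regulators described here are 10 regulators of cell growth and division were followed across the 4 libraries: Myc, Mycn, Ccnd1, Ccnd2, Ccne1, Cdk6, Cdkn1a, Cdkn1b, E2f3 and Foxm1. They form a functional group, and a site of any list belonged to one of them when its chromosome, position and strand lay inside the span that the lists give for the gene. All 10 genes had sites. Together they held 945 distinct sites of 881997 in the series, listed as 229 and 310 sites in the wild-type (WT) libraries and 271 and 262 sites in the Mettl3 knockout (KO) libraries.

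The data come from organoids of the mouse, differentiated toward retina in culture, after 4 days of differentiation. The control is the Rx:GFP line (genotype WT, a green fluorescent reporter of the eye field gene Rax), and the other line is the Mettl3 KO made in Rx:GFP, which also carries an HA-tagged METTL3 under doxycycline control. Both grew in GMEM with KSR, NEAA, β-ME, sodium pyruvate and AGN, the treatment label of every sample is "No", and all 4 share 1 batch label. Each genotype is 1 line with 2 libraries, and nothing in the labels says that the replicates were separate cultures, so every p-value measures the spread between these libraries, which may be technical. In GLORI, glyoxal and nitrite turn unmodified adenosine into a base read as G, while N6-methyladenosine (m6A) is still read as A. The level of a site is its share of reads with A among reads with A or G. METTL3 is the catalytic subunit of the complex that writes most m6A in mRNA.

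MYC and MYCN are transcription factors that drive growth and proliferation in many progenitor cells. D cyclins with CDK6, and later cyclin E with its own kinase partner, phosphorylate the retinoblastoma protein, which releases E2F factors to start the genes of S phase. The products of Cdkn1a (p21) and Cdkn1b (p27) hold these kinases back, and FOXM1 turns on genes of G2 and mitosis. Many of these mRNAs are short-lived, and m6A is known as a mark that can shorten the life of an mRNA.

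Median coverage of a listed site was 38 to 41 reads over all genes and 41 to 54 reads in the 10 genes. Every list is limited to sites with at least 15 reads, at least 5 of them unconverted, a level of at least 0.1 and a deposited p of at most 0.004. A position missing from a list was therefore below one of these limits, and no level is known for it. Mettl3 itself was covered at 1.01 and 0.801 in the WT libraries and at 1.16 and 1.04 in the KO libraries, relative to the median gene of each library (limma, log2 change 0.29 ± 0.18 SE, adjusted p 0.348), so the coverage of the targeted gene does not check the labels. Its lesion is not described in the labels.

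The first comparison asked whether the 10 genes carried fewer listed positions in the KO. Their number of listed sites did not differ beyond the spread of the WT libraries: 269.5 ± 57.3 in the WT and 266.5 ± 6.36 in the KO (SD, n = 2 each; two-sided exact permutation p = 1). The KO to WT ratio of mean counts was 0.989 in the 10 genes and 0.865 over the whole lists, where the genotypes also overlapped. What differed was how high the well covered sites were. Counting only sites read 50 times or more, 13 and 15 had a level of at least 0.5 in the WT lists, against 3 and 2 in the KO lists. From 0.3 upward there were 29 and 26 such sites in the WT lists and 12 and 14 in the KO lists. Both KO libraries lay below both WT libraries in these classes (exact permutation p = 0.33 for each, the smallest that 2 against 2 libraries can give). Between 0.1 and 0.2 the WT lists had 65 and 103 sites and the KO lists 107 and 84, and the genotypes overlapped. The whole lists shifted in the same direction, with a KO to WT ratio of mean counts of 0.274 for well covered sites at 0.5 and above, where the 10 genes had 0.179. At 0.3 and above the ratios were 0.448 in the lists and 0.473 in the 10 genes.

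**Figure D1:**
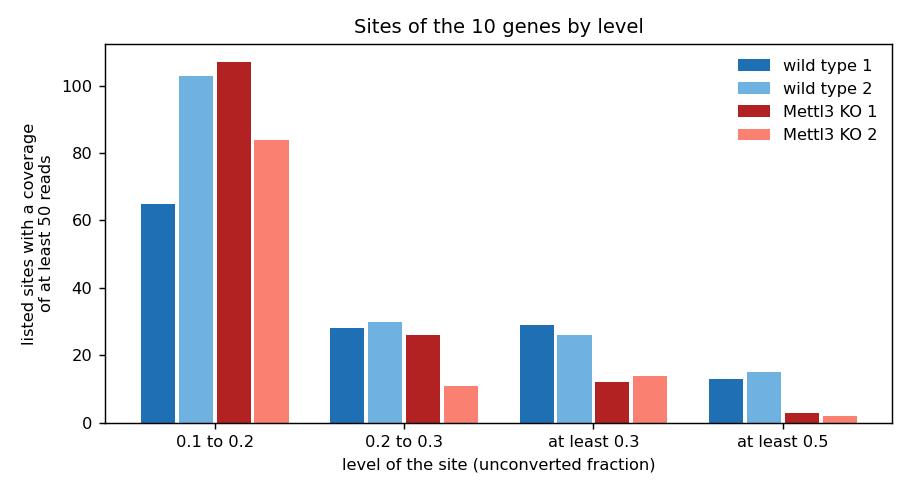
Number of listed sites in the 10 genes read 50 times or more (y axis) by level class (x axis, unconverted fraction), 1 bar per library; the class of at least 0.3 includes that of at least 0.5. In the class of at least 0.5 the wild-type bars reach 13 and 15 and the Mettl3 KO bars 3 and 2, while in the class of 0.1 to 0.2 the genotypes overlap.

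Most positions were seen once. Of the 945 distinct sites, 838 (88.7%) were in 1 list, 89 in 2, 16 in 3 and 2 in all 4, close to the 91.9% of single-list sites in the series. The sites that recur between the WT libraries carry the clearest values. Sites were taken that reached 0.3 on at least 50 reads and for which no fewer than 50 reads were expected in the library searched. Of these, 14 of 29 sites of WT replicate 1 were listed again in WT replicate 2 (48.3%, Wilson 95% interval 31.4% to 65.6%), and 15 of 22 in the reverse direction (68.2%, 47.3% to 83.6%). In other genes these shares were 47.6% and 44.0%. Expected coverage is the coverage at the site multiplied by the ratio of the gene's coverages in the libraries. Sites chosen in the same way reappeared in the KO libraries in 3 of 26 and 5 of 22 cases from WT replicate 1, and in 3 of 19 and 4 of 17 cases from WT replicate 2. These shares ran from 11.5% (4.00% to 29.0%) to 23.5% (9.56% to 47.3%), against 6.96% to 7.93% in other genes. In the direction from KO to WT, KO replicate 1 gave 0 of 10 and 1 of 12 sites and KO replicate 2 gave 1 of 13 and 2 of 14, and between the KO libraries 2 of 7 and 1 of 14. In other genes the shares were 8.72% to 9.18% from KO to WT, and 8.35% and 8.90% between the KO libraries. The difference between WT and KO in these shares was not tested, and some of the intervals overlap.

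Both WT lists shared 44 sites that had 20 reads or more in both. The KO lists lacked 32 of these altogether (72.7%; 95% interval by Wilson's method 58.2% to 83.7%), 10 were in 1 KO list and 2 in both. The share among the other genes of the series was 83.1% of 22650 sites (82.6% to 83.5%), inside the interval of the 10 genes. Measured in the opposite direction as background, 10 of 17 sites shared by the KO lists were in neither WT list (58.8%, 36% to 78.4%), against 72.1% of 9073 sites in other genes. Of the rest, 5 were in 1 WT list and 2 in both. Expected KO coverage at the 32 sites ran from 20.1 to 377 reads with a median of 78.4, and it was at least 50 in both KO libraries for 23 of them. Reads of the KO lists were also found close by: 22 of the 32 positions had another position of a KO list within 50 bases, and 11 had one from each KO list. Among the 16 sites with a level of at least 0.3 in both WT lists, 9 were in neither KO list (56.2%, 33.2% to 76.9%), against 85.6% of 7031 such sites in other genes, which lies above that interval. With at least 50 reads expected in both KO libraries as well, it was 6 of 11 (54.5%, 28.0% to 78.7%), against 85.1% of 3537 in other genes. Of the 12 shared WT sites still in a KO list, 8 had every KO level below both WT levels (66.7%, 39.1% to 86.2%), against 46.2% of 3836 such sites in other genes, a share inside that interval. These intervals cover counting error only, and sites of 1 gene share their source.

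**Figure D2:**
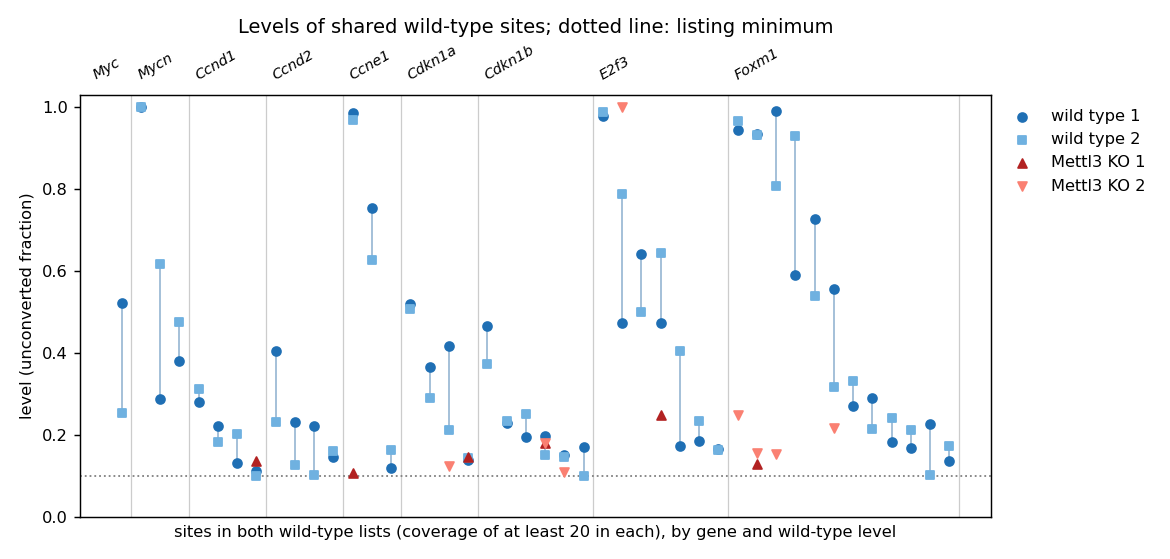
Level (y axis, unconverted fraction) of each of the 44 sites in both wild-type lists, read 20 times or more in each, grouped by gene and ordered by wild-type level (x axis), with 1 symbol per library in which the site was listed. KO symbols are missing at 32 sites, and the sites near 0.95 in Foxm1 and Ccne1 carry KO symbols between 0.108 and 0.25.

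Foxm1 had the most distinct sites of the 10 genes (193): 47 and 69 in the WT lists and 50 and 60 in the KO lists. The gene (ENSMUSG00000001517) spans 128339930 to 128353109 on the plus strand of chromosome 6. It held 12 of the 44 shared WT sites, and 11 of these fell in a stretch of 2547 bases from 128350249 to 128352795. The site at 128351899, 1210 bases before the 3′ end, was the only high one measured in all 4 libraries. It had levels of 0.933 (84 of 90 reads) and 0.931 (215 of 231) in the WT and 0.129 (17 of 132) and 0.156 (19 of 122) in the KO. The genotypes stand far apart and the replicates close together, 0.932 ± 0.00184 against 0.142 ± 0.0191 (SD, n = 2 each; edgeR quasi-likelihood test, adjusted p 0.000136 over 1557 sites). Over all those sites 2.63% were called lower in the KO. Without KO replicate 2 the difference was as large but its adjusted p rose to 0.0621, past the threshold of 0.05.

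The next high Foxm1 sites showed the same order of genotypes. At 128350820 the WT levels were 0.991 (106 of 107 reads) and 0.807 (71 of 88). KO replicate 2 had 0.154 (12 of 78), and KO replicate 1 did not list the position, where 94.8 reads were expected. At 128352725 the WT levels were 0.944 and 0.966 at 107 and 29 reads, and KO replicate 2 had 0.25 at 28 reads. This last position also lies inside the same-strand features Tex52 and Gm44596, so its reads cannot be assigned to Foxm1 with certainty. Not all of Foxm1 followed: the best KO-only site, at 128348538, had levels of 0.317 and 0.215 at 82 and 93 reads and was in no WT list, where 93.4 and 102 reads were expected. At 128350434 both KO lists held a site, at 0.260 and 0.323 on 315 and 362 reads. WT replicate 1 had 0.602 there on 108 reads, and WT replicate 2 did not list it.

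E2f3, whose product is an activator of S phase genes, had 37 and 45 WT sites and 33 and 29 KO sites. The gene (ENSMUSG00000016477) spans 30090558 to 30170046 on the minus strand of chromosome 13. Well covered sites (50 reads or more) that reached 0.3 numbered 6 and 10 in the WT and 0 in each KO list. This count differed between genes. For Foxm1 it was 11 and 6 in the WT and 6 and 2 in the KO, and for Mycn 5 and 3 against 2 and 3. Myc went the other way, with 1 and 0 in the WT and 3 and 5 in the KO. Of the 7 shared WT sites of E2f3, 5 lay within 859 bases, from 30093128 to 30093986. At 30093578 the WT levels were 0.977 (85 of 87 reads) and 0.988 (79 of 80), and neither KO list held the position, with 69.5 and 61.1 reads expected. The nearest KO positions, 65 and 62 bases away, were covered by 66 and 40 reads at levels of 0.121 and 0.175. At 30093545 the WT levels of 0.642 and 0.5 were likewise without a KO entry. One shared site, at 30093986, was also high in a KO list. There the WT levels were 0.473 and 0.789 at 91 and 90 reads. KO replicate 2 listed it at 1 on only 27 reads, and KO replicate 1 did not list it but had a position 3 bases away at 0.179 on 39 reads. KO replicate 2 had 10 E2f3 sites at 0.5 or above, all on fewer than 50 reads, against 3 in KO replicate 1 and 8 and 12 in the WT. One of them, 1339 bases before the 3′ end and named after its value was seen, was 0.837 on 43 reads in KO replicate 2 and 0.143 on 98 reads in WT replicate 2. At 30169531, 515 bases after the gene start, both KO lists held a site, at 0.203 and 0.260 on 217 and 204 reads. WT replicate 1 had 0.226 there on 199 reads, and WT replicate 2 did not list it.

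**Figure D3:**
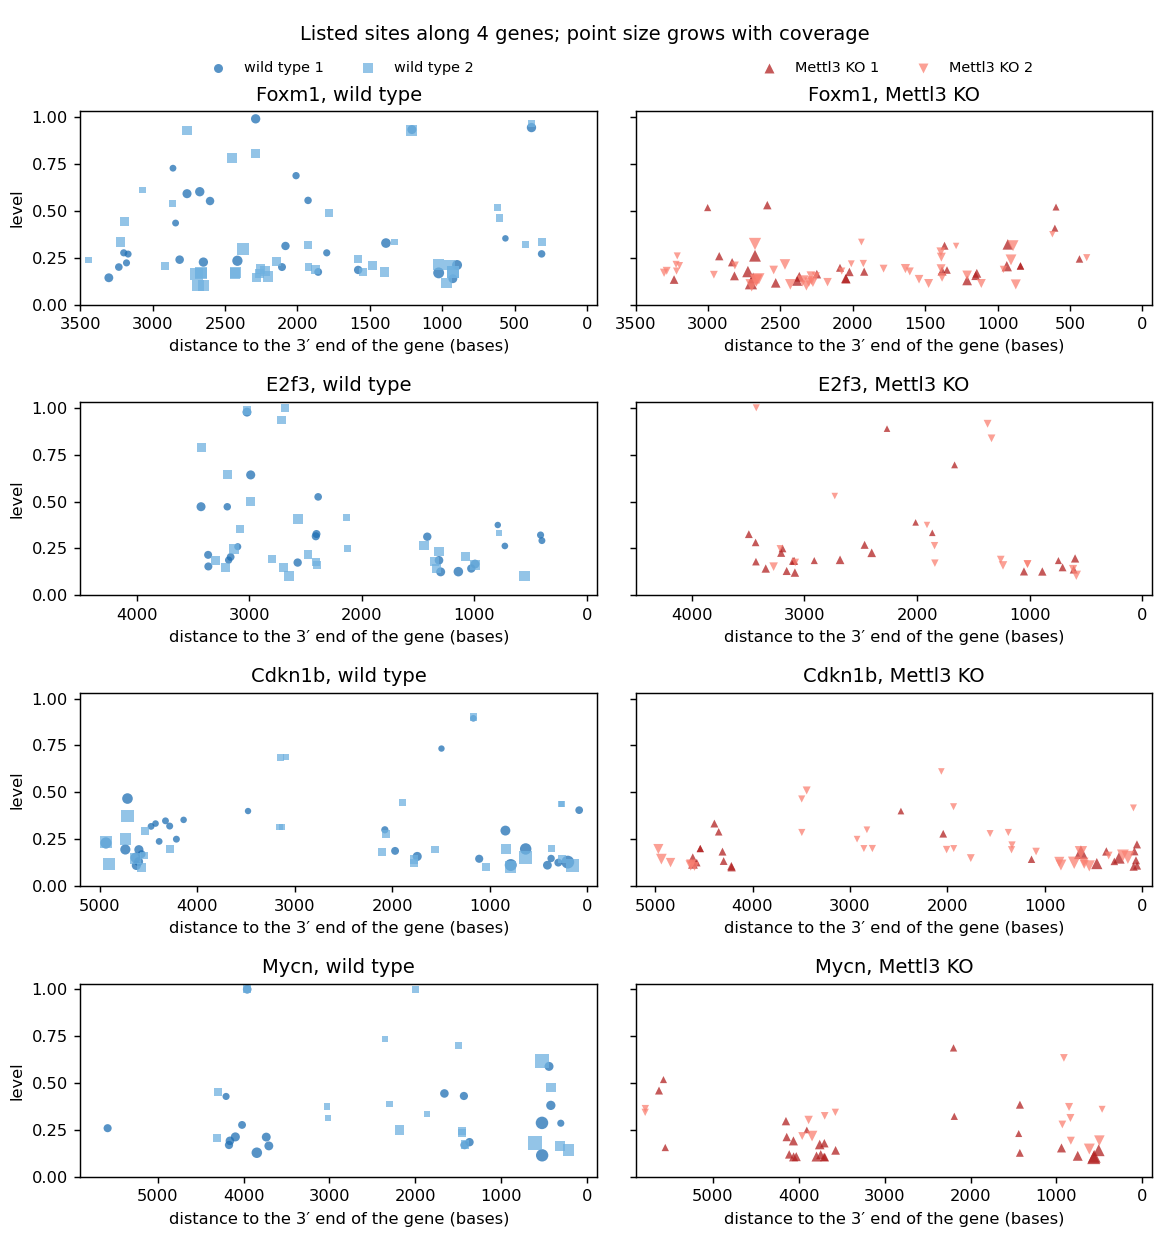
Listed sites of Foxm1, E2f3, Cdkn1b and Mycn by distance to the 3′ end of the gene (x axis, bases) and level (y axis, unconverted fraction), wild-type libraries on the left and Mettl3 KO libraries on the right, with larger points for higher coverage; for Foxm1 and E2f3 the 3′ part only. Foxm1 holds 11 shared wild-type sites in 2547 bases and E2f3 has 5 in 859 bases. The KO point at a level of 1 in E2f3 rests on 27 reads.

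The Myc genes differed in how much could be seen. Mycn (ENSMUSG00000037169, chromosome 12, 12986094 to 12991915, minus strand) had 19 sites in each WT list and 27 and 15 in the KO lists. All 3 of its shared WT sites were in neither KO list. The site at 12990051 was fully unconverted in both WT libraries, 73 of 73 and 43 of 43 reads. In the KO 45.0 and 36.9 reads were expected there, and KO replicate 2 had 46 reads at a level of 0.217 at a position 3 bases away. The nearest position of KO replicate 1, 51 bases away, had 20 reads at 0.25. The deepest site, at 12986619, 525 bases before the 3′ end, had WT levels of 0.287 (115 of 400 reads) and 0.618 (377 of 610). The WT replicates lay far apart there, and the KO lists do not hold it where 377 and 309 reads were expected. KO positions 17 and 25 bases away were covered by 311 and 192 reads at 0.141 and 0.193. The remaining site, at 12986516, had 0.381 and 0.477 at 105 and 130 reads.

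Myc (ENSMUSG00000022346, chromosome 15, 61857240 to 61862223, plus strand) had 10 and 5 WT sites and 16 and 17 KO sites. Its gene coverage was near that of the median gene, 0.789 and 0.810 times in the WT and 0.985 and 1.05 times in the KO. The listed WT sites were thinly covered, at a median of 22.5 and 25 reads, against 65.5 and 34 in the KO. Only 2 sites of each WT list had 50 reads or more, against 12 and 5 in the KO lists. Its single shared WT site, at 61857557, had levels of 0.522 (12 of 23 reads) and 0.254 (16 of 63) and was in neither KO list. In the opposite direction, the site at 61861304, 919 bases before the 3′ end, had KO levels of 0.637 (51 of 80) and 0.469 (15 of 32) and was in neither WT list. There 43.2 and 50.5 WT reads were expected, but the nearest WT positions were 641 and 1291 bases away, so local WT coverage is not known. It was the only KO-shared site of the 10 genes absent from the WT with a mean level above 0.5, out of 10.

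Among the cyclins, the highest sites shared by both WT lists were higher in Ccne1 than in the D cyclins. Single lists held sites at 0.5 or above in each gene (3 and 5 in the WT lists of Ccne1, 2 and 3 in Ccnd1, 2 and 6 in Ccnd2). The KO lists held 1 and 2 such sites in Ccne1, 2 and 1 in Ccnd1 and 3 and 4 in Ccnd2. Ccne1 (ENSMUSG00000002068, chromosome 7, 37797409 to 37806959, minus strand) had 7 and 25 WT sites and 13 and 22 KO sites. Its site at 37797667, 258 bases before the 3′ end, had WT levels of 0.985 (129 of 131 reads) and 0.969 (93 of 96). In KO replicate 1 it was 0.108 (14 of 130 reads), and KO replicate 2 did not list it but had 70 reads at 0.129 only 7 bases away. The site at 37797471, 62 bases before the 3′ end, had 0.753 (168 of 223) and 0.628 (123 of 196) in the WT and no KO entry, with 224 and 152 reads expected. The nearest KO positions were 196 and 185 bases away, so local KO coverage is not known. The remaining shared WT site, at 37797753, was low, 0.119 and 0.164 at 159 and 116 reads, and had no KO entry. In the KO alone, 37797723 had 0.119 and 0.171 at 134 and 41 reads.

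Ccnd1 (ENSMUSG00000070348, chromosome 7, 144483668 to 144493662, minus strand) had 29 and 35 WT sites and 23 and 26 KO sites. Its highest shared WT site, at 144485598, had only 0.280 and 0.312 at 82 and 93 reads, and 3 of its 4 shared sites were in neither KO list. Of these, 144484221 had 0.223 and 0.183 at 103 and 115 reads, and 144484027 had 0.131 and 0.202 at 99 and 109. The other shared site, at 144491755, was near the listing minimum in every library that held it, 0.113 and 0.101 in the WT and 0.137 in KO replicate 1. Ccnd2 (ENSMUSG00000000184, chromosome 6, 127102125 to 127129156, minus strand) had 29 and 47 WT sites and 59 and 42 KO sites. All 4 of its shared WT sites were in neither KO list, the highest being 127106629 with 0.405 and 0.233 at 37 and 43 reads. At 127103987 the levels of 0.223 and 0.103 rested on 130 and 155 reads, and 189 and 170 were expected in the KO. The nearest KO positions were 213 and 93 bases from it. At 127104804 the WT levels were 0.233 and 0.128 at 43 and 39 reads. Each D cyclin also had 1 site that was in both KO lists alone with at least 20 reads. These were 144484258 in Ccnd1 (0.304 and 0.135 at 23 and 37 reads) and 127125637 in Ccnd2 (0.270 and 0.348 at 37 and 23 reads). Cdk6 (ENSMUSG00000040274, chromosome 5, 3391485 to 3581008, plus strand), a kinase partner of the D cyclins, had 1 and 2 WT sites and 6 and 2 KO sites, none with 50 reads and none shared within a genotype. Loss or gain of m6A was not detectable in Cdk6 at this depth.

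The inhibitors were well covered. Cdkn1a (ENSMUSG00000023067, chromosome 17, 29309950 to 29319701, plus strand) had 20 and 34 WT sites and 20 and 15 KO sites. Its site at 29318257 had nearly equal WT levels, 0.521 (38 of 73 reads) and 0.507 (36 of 71), and no KO entry, with 58.9 and 40.4 reads expected. The nearest KO positions, 79 and 76 bases away, had only 26 and 29 reads. The site at 29319535, 166 bases before the 3′ end, had 0.365 (149 of 408) and 0.291 (114 of 392) and no KO entry where 328 and 225 reads were expected. A KO position 26 bases from it was covered by 202 reads in replicate 2 at 0.129. At 29316384 the WT levels were 0.417 and 0.213, and KO replicate 2 listed 0.125 on 72 reads. The remaining shared WT site, at 29319663, 38 bases before the 3′ end, had WT levels of 0.141 and 0.144. KO replicate 1 listed it at 0.148 on 81 reads, and KO replicate 2 did not list it. Cdkn1a also had sites in the KO alone, such as 29318908 with 0.130 and 0.193 at 77 and 57 reads.

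Cdkn1b (ENSMUSG00000003031, chromosome 6, 134897364 to 134902476, plus strand) had 30 and 29 WT sites and 24 and 34 KO sites. Of its 6 shared WT sites with at least 20 reads, 5 lay within 367 bases near the gene start, from 134897539 to 134897905, and 4 of these 5 were in neither KO list. The highest of the 6, at 134897760, 396 bases after the start, had WT levels of 0.467 (91 of 195 reads) and 0.373 (146 of 391), with 286 and 244 reads expected in the KO. The nearest KO positions, 103 and 82 bases away, had 142 and 173 reads. At 134897539 the WT levels of 0.230 and 0.235 agreed closely at 248 and 324 reads. KO replicate 2 had 202 reads only 2 bases away at 0.144, and the nearest position of KO replicate 1 was 324 bases away. At 134897738 the WT levels were 0.195 and 0.251 at 159 and 263 reads, without a KO entry. A further shared site with under 20 reads in 1 WT library, at 134901309, 1167 bases before the 3′ end, had 0.895 (17 of 19 reads) and 0.9 (36 of 40) and was in neither KO list. Near the other end, the site at 134901846 was in all 4 lists and did not fall: 0.198 and 0.152 in the WT and 0.180 and 0.180 in the KO, at 273 to 599 reads. The difference of 0.00543 was within the spread of the WT libraries (edgeR quasi-likelihood test, adjusted p 0.995). Foxm1 and Cdkn1b were the only 2 of the 10 genes with a site in all lists, so the pooled test per gene repeats these results, with an edgeR adjusted p of 3.80e-05 for Foxm1 and 0.990 for Cdkn1b over 821 genes, of which 5.85% were called, 5.36% lower and 0.487% higher in the KO.

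Along the genes, 14 of the 44 shared WT sites lay within 1000 bases of the 3′ end, and 6 lay within 600 bases of the start. The stretches given for Foxm1, E2f3 and Cdkn1b were drawn after the positions had been seen. Whether a site is exonic is not known here. The deposited intron mark was set at every site of Myc and Ccne1 and at no site of Foxm1, and it was not used.

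The coverage of each gene was compared next, because it sets which sites can be listed and is the nearest measure of RNA level in the lists. In bulk samples, fewer cells of a type and less RNA per cell cannot be told apart. None of the 10 genes passed the test of gene coverage, a limma fit on log2 coverage centred on the median gene (0 of 10 at an adjusted p under 0.05; of all 8281 genes, 5.77% were called, 3.12% lower and 2.66% higher, and 1013 were lower and 907 higher at an unadjusted p under 0.05). The genotypes did not overlap in 7 of the 10, against 54.1% of all genes. The median log2 change of the 10 genes was -0.06, beside -0.02 for all genes.

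Higher values in the KO were seen for Ccnd2 and Myc. Ccnd2 had coverages of 1.07 and 1.11 in the WT and 1.46 and 1.51 in the KO, in multiples of the median gene. On the log2 scale this was a difference of 0.45 ± 0.16 (SE; 95% interval 0.09 to 0.80; limma adjusted p 0.127). Myc had 0.789 and 0.810 in the WT and 0.985 and 1.05 in the KO, a log2 change of 0.35 ± 0.16 (SE; interval -0.01 to 0.71; limma adjusted p 0.224). Lower values were seen for Cdkn1a and Mycn. Cdkn1a had 3.51 and 3.64 in the WT and 2.93 and 2.31 in the KO, a log2 change of -0.46 ± 0.18 (SE; interval -0.84 to -0.07; limma adjusted p 0.149). It was -0.28 without KO replicate 2 and -0.63 without KO replicate 1. Mycn had 2.82 and 2.92 in the WT and 2.19 and 2.07 in the KO, a log2 change of -0.43 ± 0.16 (SE; interval -0.79 to -0.08; limma adjusted p 0.139). The paralogs in each pair, Myc with Mycn and Ccnd2 with Ccnd1, therefore had values on opposite sides, Ccnd1 at 1.40 and 1.25 in the WT and 1.19 and 1.11 in the KO. That difference between paralogs was not tested. E2f3 had 1.11 and 1.14 in the WT and 0.934 and 0.946 in the KO. Foxm1 (1.70 and 1.63 against 1.62 and 1.62), Cdkn1b (2.66 and 3.14 against 2.95 and 2.90) and Ccne1 (2.23 and 2.26 against 2.40 and 1.87) were nearly level, with 95% intervals that reach at most 0.47 in either direction on the log2 scale. Cdk6 was low and scattered, 0.505 and 0.338 in the WT and 0.446 and 0.651 in the KO.

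**Figure D4:**
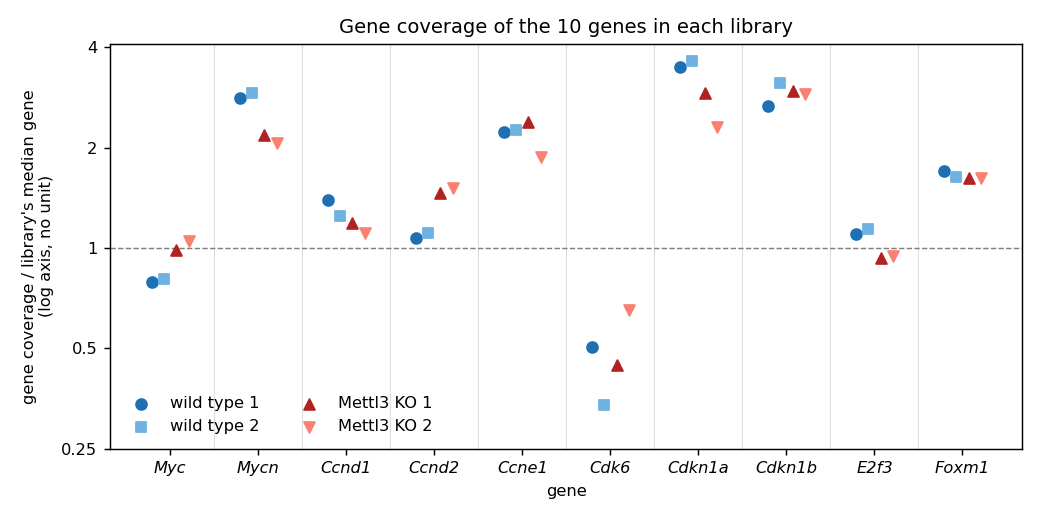
Deposited gene coverage divided by the library's median gene (y axis, log scale, no unit) for the 10 genes, with 1 point per library and a dashed line at the median gene. Ccnd2 and Myc lie higher in both KO libraries and Mycn and Cdkn1a lower, none of them past the test, while Foxm1 stays between 1.62 and 1.70.

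Of 50 other cell cycle genes, 45 had coverage in all libraries, and 3 were lower and 1 higher in the KO by the same limma test, beside the 3.12% and 2.66% of all genes. The median log2 change of the 45 was -0.07. Trp53, the p53 tumour suppressor and activator of Cdkn1a, had 4.95 and 5.48 times the median gene in the WT and 2.71 and 2.64 times in the KO (log2 change -0.96 ± 0.16 SE, limma adjusted p 0.00889). Cdkn1c, which encodes the p57 inhibitor of the same family, had 1.00 and 0.987 against 0.367 and 0.484 (log2 change -1.24 ± 0.18 SE, limma adjusted p 0.00398). Ccnd3, the remaining D cyclin, had 3.94 and 4.40 against 2.76 and 2.24 (limma adjusted p 0.0342). Mycl, the remaining Myc gene, was the higher one, at 1.15 and 1.27 against 1.96 and 1.99 (limma adjusted p 0.0308). The Mycl call was lost without centring (adjusted p 0.155) and without any single library (0.0924 to 0.168). Single libraries changed the other calls too. All 4 named genes lost theirs without KO replicate 1. Ccnd3 and Trp53 also lost theirs without KO replicate 2, and Ccnd3 without WT replicate 2. With 1 library left out, the log2 change ran from -1.04 to -0.89 for Trp53, from -1.44 to -1.04 for Cdkn1c and from -0.89 to -0.59 for Ccnd3. The 4 named genes kept the sign of their change in each case.

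Cell type markers moved with genotype as well. Of 4 eye field markers, the 2 with a value were lower in the KO by the limma test of gene coverage. These were Six3 (16.3 and 17.6 in the WT, 1.80 and 2.45 in the KO) and Lhx2 (4.26 and 4.61 against 0.636 and 0.628). Also called lower were 2 of 4 pluripotency and early epiblast markers with a value (Fgf5 and Pou5f1) and 1 of 4 neural progenitor markers (Sox2). Krt18 was called lower too, the only 1 of 4 surface ectoderm and neural crest markers with a value. Over all genes, 3.12% were called lower and 2.66% higher. Tubb3, a neuronal marker, did not pass, and 0 of the 4 mesoderm and 0 of the 4 endoderm markers had a value in all lists. The part of cell makeup in the coverage of the 10 genes was not tested.

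The lists also give a conversion rate per gene, and its complement is the share of adenosine left unconverted over the gene. How the authors computed the rate is not given in the sources used here. This comparison was added after the rates had been seen. Myc had the highest share of the 10 in the WT, 8.35% and 7.43%, and 3.43% and 4.19% in the KO. Mycn followed with 6.47% and 6.49% in the WT and 3.01% and 5.06% in the KO. Foxm1 had 5.51% and 5.89% against 4.80% and 3.84%, and E2f3 had 4.97% and 4.97% against 3.73% and 3.27%. The lowest shares in the WT were those of Ccnd2, 2.67% and 2.44% against 2.26% and 2.94%, and Cdkn1b, 2.95% and 2.59% against 2.54% and 2.32%. Both KO libraries lay below both WT libraries in 8 of the 10 genes, all but Ccnd2 and Cdkn1a. Over all genes this held for 50%. The median gene changed by -0.29 on the log2 odds scale, and after centring on the median of each library, Myc changed by -0.79 ± 0.16 on the log2 odds scale (SE; limma, unadjusted p 0.00606, adjusted p 0.335), Mycn by -0.44 ± 0.23 (SE; adjusted p 0.452; -0.18 without KO replicate 1 and -0.69 without KO replicate 2) and the other 8 by -0.20 to 0.35. None of the 10 passed, and limma called 0 of 8281 genes (0% in either direction), with 654 lower and 409 higher at an unadjusted p under 0.05.

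**Figure D5:**
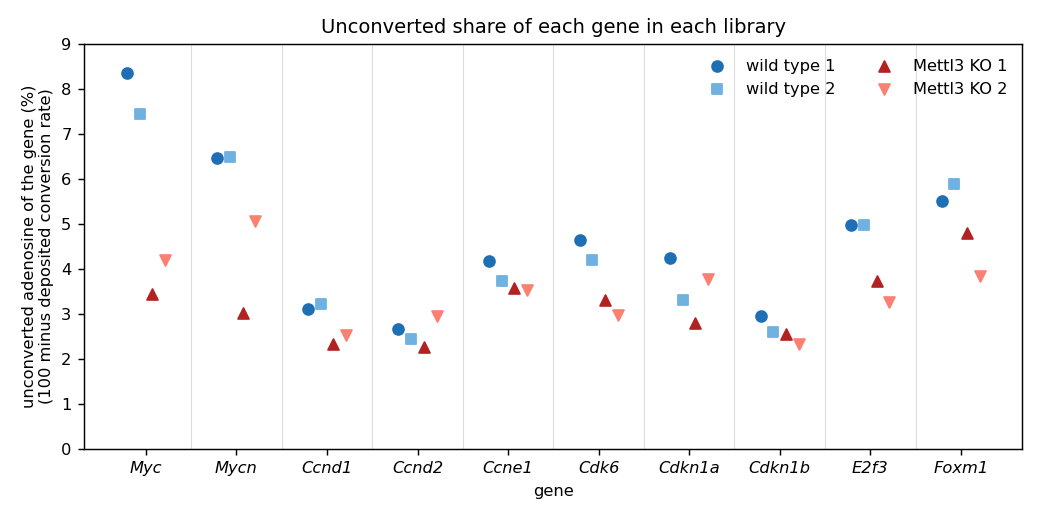
Unconverted share of the adenosine of each gene (y axis, percent; 100 minus the deposited conversion rate) for the 10 genes, with 1 point per library. Myc lies at 8.35% and 7.43% in the wild type and at 3.43% and 4.19% in the Mettl3 KO, the widest gap of the 10, while Ccnd2 and Cdkn1a overlap between genotypes.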

How the data were processed

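Each library has its own site list as deposited by the authors, with no pooling. Per the file headers, each site has counts of reads with A or G and of reads with A, and the level is their ratio, which equalled the deposited fraction to within 0.000005. The deposited gene conversion rate is also a fraction, and the deposited gene coverage is a signal whose scaling is not stated. The authors' p-value per site served only to describe the lists. Aligner and caller are not given in the sources used here. The submitters' processing notes name mm10, but the gene spans of the lists hold 945 distinct member sites and the GRCm38 spans only 37, so positions are printed as the lists give them and their build is unsettled.

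Values shared along a whole chromosome (18.4% to 24.3% of sites) were left out as gene values, as were genes with several values. Levels at sites of all 4 lists with at least 20 reads in each were tested with edgeR 4.0.16 (quasi-likelihood, a term per library), and gene values with limma 3.58.1, in R 4.3.3, adjusted by Benjamini-Hochberg over all features. The other tests were exact permutation tests and Wilson 95% intervals, which cover counting error only since reads may be PCR copies. Both fits were first tested on simulated data.

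Named in each gene were the 3 highest sites of both WT lists with at least 20 reads in each, every site of all 4 lists, and the highest site of both KO lists alone. Other sites were named after their values were seen. The 10 genes, the lists and the naming rule were chosen with earlier results of these data known. Alternatives were other minima of coverage and level, limma on log2 odds with 0.5 added to counts, a replicate block, uncentred coverage, another reading of gene values and leaving out each library. No sequence is shown, because no genome of the files' build was used here.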

Additional observations from a re-analysis of the deposited data

How the results depend on the processing

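The absence of calls in gene coverage and unconverted share held under every alternative run: 0 of the 10 genes passed without centring, with the replicate block, with several values allowed and without any single library, and 0 of the 9 left with low genes removed (coverage only, Cdk6 not tested). Some changes of sign occurred, none past the threshold. Log2 coverage ranged, over the fits that leave out 1 library, from -0.26 to 0.10 for Ccne1 (positive without KO replicate 2) and from -0.11 to 0.14 for Cdkn1b (negative without WT replicate 1), and was -0.0922 for Cdkn1b without centring. The unconverted share, an analysis added after seeing the data, changed sign without centring for Ccne1 (-0.16), Cdkn1a (-0.21) and Cdkn1b (-0.19). With 1 library left out it ranged from -0.14 to 0.00333 for Ccnd1, -0.39 to 0.0273 for Cdk6, -0.42 to 0.0335 for E2f3 and -0.40 to 0.21 for Foxm1, each positive without KO replicate 2. It ranged from -0.0479 (without WT replicate 2) to 0.30 for Cdkn1a and from -0.0588 (without KO replicate 1) to 0.34 for Cdkn1b. Among the 45 other cell cycle genes, whose alternatives were also added after seeing the data, the count of 4 calls went from 0 to 4 when 1 library was left out. Of the 2 sites tested, 0 to 1 were called without 1 library, the loss being Foxm1 without KO replicate 2, and the log2 odds of the Cdkn1b site, per site and pooled, ranged from -0.17 without WT replicate 2 to 0.29 without WT replicate 1 (pooled without KO replicate 1, -0.0690). The pooled Cdkn1b value without KO replicate 1 also includes 134897842, which is in all the lists left and is not in the main pooled test. The ratio of listed sites, KO over WT, was 0.989, and 1.14 after division by the sites of each library in all genes. The ratio moved from 0.989 to 0.760 at a level of at least 0.3. It moved to 0.473 with a coverage of at least 50 as well, the latter added after seeing the data. The share of shared WT sites in neither KO list was 72.7%. It was 56.2% at a level of at least 0.3, 54.5% with an expected coverage of at least 50 as well, and 81.7% to 86.4% without 1 library, since fewer lists then have to hold or lack a site. The replicate numbers share no stated origin. Across genes, the differences between replicates 1 and 2 of log2 coverage correlated at -0.0275 between genotypes, and the replicate block changed no call for the 10 genes: 0 for coverage and 1 for site level, with an adjusted p of 6.11e-05 at the Foxm1 site. With 2 libraries per group no exact test could pass 0.05, and levels below 0.1 could not be seen at any depth.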
